A study of Mus musculus with 8 samples.

Results

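Cytotoxic T cells and natural killer (NK) cells kill infected or transformed cells with a shared set of effector molecules, and 10 genes of that set were described here in mouse liver: the granzymes Gzma, Gzmb and Gzmk, the pore former Prf1, the granule membrane protein Nkg7, the cytokine Ifng, the receptors Klrk1, Klrd1 and Ncr1, and the transcription factor Eomes. They were chosen by symbol, with earlier results of these data known, and all 10 were found among the 55536 genes with an identifier in the deposited table of counts. Liver RNA was sequenced from 2-month-old wild-type C57BL/6 mice injected with 0.1 OD of adenovirus and killed 1 week later after an overnight fast. In the knockdown group (n = 4) the virus carried a short hairpin RNA against Eif4ebp3, a binding protein of the translation initiation factor eIF4E, and in the control group (n = 4) one against the bacterial gene lacZ, which mice lack. Both groups had therefore received adenovirus, and no uninjected liver was analysed here. The sources used here give neither the sex of the mice nor any cell type to which the virus was restricted. The comparison asked which liver transcripts differ in level when Eif4ebp3 is knocked down.

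A killer lymphocyte stores perforin and granzymes in granules and releases them onto a target cell. Perforin opens a path for the granzymes, proteases that start cell death, while interferon gamma acts on surrounding cells through its receptor and induces antigen presentation. The liver holds resident and circulating populations of both lineages. Most effector genes are used by CD8+ T cells and by NK cells alike, whereas Ncr1, which encodes NKp46, is largely a gene of NK cells and related innate lymphocytes.

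The 10 genes lie on 6 chromosomes, with Gzma and Gzmk together on chromosome 13, Klrk1 and Klrd1 on chromosome 6, Prf1 and Ifng on chromosome 10, and Nkg7 and Ncr1 on chromosome 7. RefSeq start sites were available for 9 of them (all but Klrd1), and the window from 250 bases before to 50 bases after each start was searched on both strands for 4 sets of letters. The RUNX letters TGTGGTT were in the windows of 4 of the 9 genes (Gzma, Gzmb, Klrk1 and Ncr1), against 6.09% of 27025 genes with a window. The T-box letters GGTGTG were in 2 (Gzmk and Nkg7) against 21.4%, and the longer AGGTGTGA, which contains them, was in 1 (Nkg7) against 1.48%. The STAT letters TTCNNNGAA were in 3 (Gzmb, Ifng and Nkg7) against 9.55%. The 4 upstream sequences with the RUNX letters are shown. Of these genes 3 rose in the knockdown samples, as did every effector gene tested without the letters, and Ncr1 was too low to be tested with them. Each is the 250 bases before the start, 5′ to 3′ on the strand of the gene, from RefSeq on GRCm38.p6 (the build also called mm10), with the RUNX letters or their reverse complement in capitals.
Gzma, chr13:113100982-113101231, minus strand: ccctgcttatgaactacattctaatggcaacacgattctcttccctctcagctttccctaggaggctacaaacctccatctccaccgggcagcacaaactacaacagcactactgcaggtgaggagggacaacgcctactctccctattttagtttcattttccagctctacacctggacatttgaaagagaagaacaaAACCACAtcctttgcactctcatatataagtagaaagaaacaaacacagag
Gzmb, chr14:56262335-56262584, minus strand: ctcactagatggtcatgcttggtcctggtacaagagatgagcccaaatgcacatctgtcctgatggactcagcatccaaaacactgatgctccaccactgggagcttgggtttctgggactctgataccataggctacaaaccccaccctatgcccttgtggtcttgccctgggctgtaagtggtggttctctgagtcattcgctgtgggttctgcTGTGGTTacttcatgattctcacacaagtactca
Klrk1, chr6:129623865-129624114, minus strand: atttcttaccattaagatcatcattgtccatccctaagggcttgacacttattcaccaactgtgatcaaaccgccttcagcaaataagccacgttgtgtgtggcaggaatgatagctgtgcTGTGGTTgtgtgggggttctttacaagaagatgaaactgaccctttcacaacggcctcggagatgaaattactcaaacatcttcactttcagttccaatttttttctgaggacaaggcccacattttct
Ncr1, chr7:4337465-4337714, plus strand: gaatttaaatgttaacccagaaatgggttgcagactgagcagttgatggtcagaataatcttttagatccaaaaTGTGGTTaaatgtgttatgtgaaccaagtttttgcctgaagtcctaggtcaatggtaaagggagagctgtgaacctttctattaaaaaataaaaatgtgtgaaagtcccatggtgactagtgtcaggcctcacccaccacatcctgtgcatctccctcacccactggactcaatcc
The letters end 45 bases before the start in Gzma, 28 in Gzmb, 123 in Klrk1 and 170 in Ncr1, where the earlier of 2 RefSeq starts was used.

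Eif4ebp3 itself held 289, 216, 204 and 49.3 CPM (counts scaled to the size of each library) in control replicates 1 to 4 and 9.62, 13.9, 37.2 and 19.5 CPM in knockdown replicates 1 to 4, so every knockdown sample lay below every control. Of its exon bases, 67.3% also belong to AC115631.1 on the same strand, so part of these counts could be assigned to either gene. Control replicate 4 was the lowest control for Eif4ebp3 and the highest control for 9 of the 10 effector genes, all but Ncr1. It is also the only control whose sample code carries the letter D, which knockdown replicate 4 shares, while the other 6 samples carry C, and the labels do not explain the letter. Values without control replicate 4 are given where it moves a fold by more than 1.5 times, and the plot of fold changes shows them for all 9 genes tested. Total counts ranged from 24371461 to 32389444 per sample. A gene is said to have risen or fallen where the adjusted p was under 0.05 by edgeR's quasi-likelihood test with Benjamini-Hochberg adjustment over the 15375 genes that passed the count filter. Of these genes 57.2% passed in either direction, 29.5% rising and 27.8% falling, which is the background for the counts of genes below. Because the 10 genes and the other lists were chosen with earlier results of these data known, their counts are no independent test against it.

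Of the 10 effector genes 9 were tested and each of the 9 rose, by between 2.39-fold (Eomes) and 11.2-fold (Ifng), while Ncr1 had too few counts for the filter. Only Gzma, Gzmb, Nkg7 and Klrk1 had enough counts in both groups. The other 5 (Gzmk, Prf1, Ifng, Klrd1 and Eomes) passed the filter through the knockdown samples alone, so that their passing already required a higher level there. With no filter all 10 were tested and 9 rose, against 17.7% of 27389 genes. That share is below the 29.5% of filtered genes because the genes added had low counts and few calls (4847 rising against 4528). In 8 of the 10 genes every knockdown sample lay above every control, as in 27.4% of the genes that passed the filter (52.1% had groups that did not overlap in either direction). The 8 include Gzmk, Prf1, Ifng and Klrd1, tested through the knockdown samples alone, and the 10 include Ncr1, which failed the filter. In this bulk tissue, more cells of a type and more RNA per cell cannot be told apart.

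**Figure D1:**
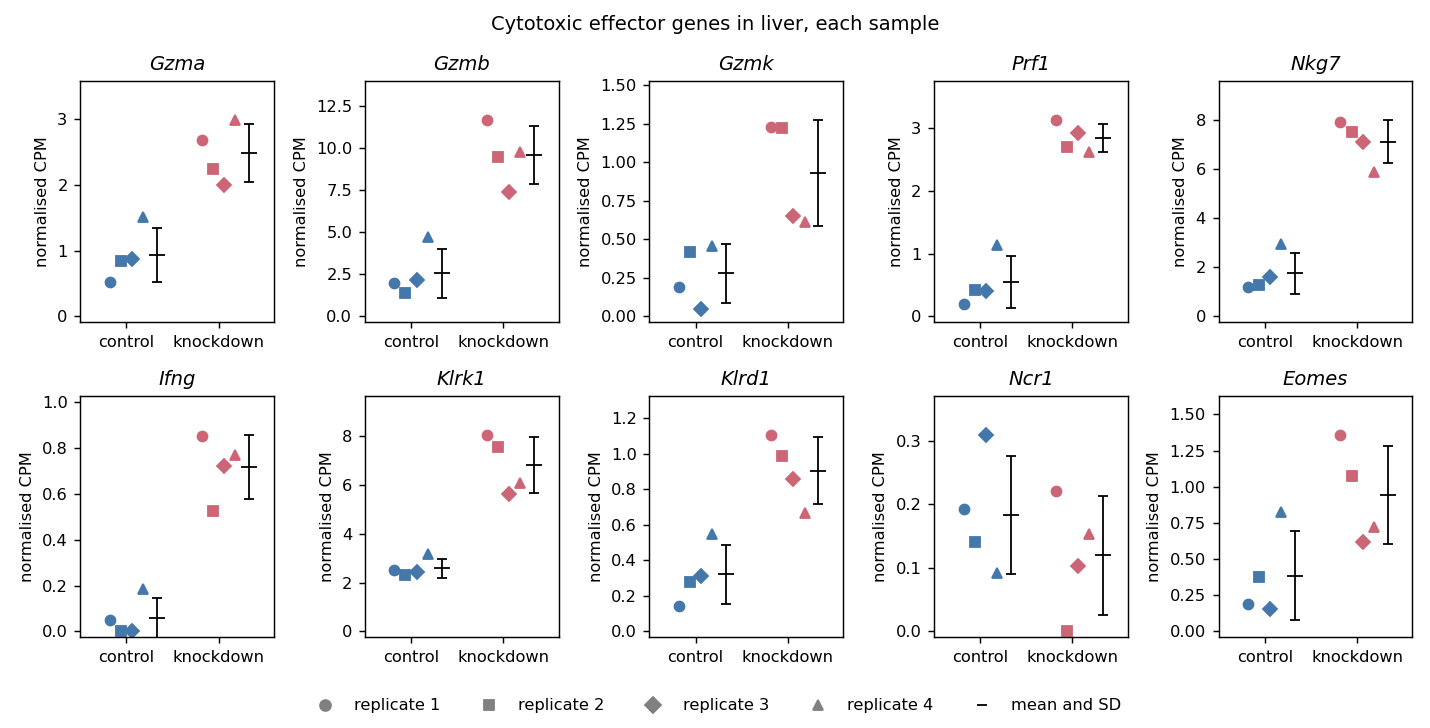
Normalised CPM (y axis, from 0, a different scale in each panel) of the 10 effector genes in each control and knockdown sample, with marker shapes for replicates 1 to 4 and a bar for the mean and SD (n = 4). The groups separate in 8 panels and overlap in Eomes and Ncr1, and the triangle of control replicate 4 is the highest control in all panels but Ncr1. The lower SD bar of the Ifng controls is cut at the axis.

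Gzmb, the granzyme that cleaves caspases after aspartate residues, held 1.97, 1.4, 2.16 and 4.71 CPM in control replicates 1 to 4 and 11.6, 9.48, 7.39 and 9.77 CPM in knockdown replicates 1 to 4. The lowest knockdown sample was 1.57 times the highest control. Gzmb rose by 1.90 ± 0.31 (log2 fold change, SE), from 2.56 ± 1.47 to 9.57 ± 1.74 CPM (SD, n = 4 each; adjusted p = 0.00039, edgeR). Its gene (ENSMUSG00000015437) lies at 56258838 to 56262260 on chromosome 14.

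Gzma, a granzyme that cleaves after basic residues, held 0.528, 0.841, 0.875 and 1.51 CPM in the controls against 2.68, 2.24, 1.99 and 2.98 CPM in the knockdown samples. It rose by 1.39 ± 0.30 (log2, SE; adjusted p = 0.00205, edgeR), and the groups did not overlap. Gzmk, its neighbour on chromosome 13 and a granzyme found in memory T cells, held 0.192, 0.421, 0.0515 and 0.457 CPM against 1.23, 1.22, 0.653 and 0.616 CPM. The knockdown samples fell into a higher pair (replicates 1 and 2) and a lower pair, and Gzmk rose by 1.69 ± 0.48 (adjusted p = 0.0114, edgeR) on 24 counts over all controls and 124 over all knockdown samples.

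Prf1, which encodes perforin, held 0.192, 0.421, 0.412 and 1.14 CPM in the controls and 3.12, 2.7, 2.92 and 2.62 CPM in the knockdown samples. Knockdown samples were close to each other (2.84 ± 0.228 CPM, SD, n = 4), and the lowest was 2.29 times the highest control. The change was 2.37 ± 0.38 (log2, SE; adjusted p = 0.000347, edgeR), or 3.04 without control replicate 4. Nkg7, a granule membrane protein needed for efficient degranulation, held 1.2, 1.26, 1.6 and 2.97 CPM against 7.92, 7.53, 7.12 and 5.9 CPM. It rose by 2.01 ± 0.27 (adjusted p = 8.45e-05, edgeR) with no overlap.

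Ifng, the cytokine of the set, was at or near 0 in the controls, with 1, 0, 0 and 4 estimated counts in replicates 1 to 4. Knockdown replicates 1 to 4 held 27, 18, 21 and 30 counts, or 0.852, 0.523, 0.722 and 0.77 CPM. The fitted change of 3.49 ± 0.62 (log2, SE; adjusted p = 0.000632, edgeR) rests on 5 control counts in all, 4 of them from control replicate 4, without which it was 5.12. The ratio of the group means was 12.4, with an exact 95% counting interval of 5.14 to 39.1 that covers counting error only. Of the exon bases of Ifng, 25.9% also belong to Gm49751 on the same strand, so part of its counts could be assigned to either gene.

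Klrk1 encodes NKG2D, an activating receptor for stress-induced ligands, and had the smallest coefficient of variation of the 10 genes in the controls (14.8%). It held 2.5, 2.29, 2.42 and 3.15 CPM in the controls and 8.05, 7.56, 5.64 and 6.08 CPM in the knockdown samples, and rose by 1.40 ± 0.18 (log2, SE; adjusted p = 6.01e-05, edgeR). Klrd1, which encodes CD94, a partner chain of the receptor NKG2A, held 0.144, 0.28, 0.309 and 0.548 CPM against 1.1, 0.989, 0.86 and 0.667 CPM. Its change was 1.47 ± 0.37 (adjusted p = 0.00547, edgeR), and the lowest knockdown sample was 1.22 times the highest control.

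Ncr1, the receptor NKp46, was at low level in both groups. It had 4, 3, 6 and 2 counts in control replicates 1 to 4 and 7, 0, 3 and 6 counts in knockdown replicates 1 to 4. The means were 0.183 ± 0.0933 and 0.119 ± 0.0931 CPM (SD, n = 4 each), the groups overlapped, and the difference did not pass a two-sided exact permutation test (p = 0.4, where 0.0286 is the smallest that 4 against 4 samples allow). The ratio of knockdown to control means was 0.653, with an exact 95% counting interval of 0.302 to 1.42. That interval leaves out the spread between samples, so it cannot exclude an increase of the size seen in Gzma (2.64 by the same ratio). Without the filter, edgeR gave Ncr1 a log2 fold change of -0.56 with an adjusted p of 0.582, and the authors' deposited table lists -0.41.

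Eomes, the T-box factor of NK cells and of some CD8+ T cells, had the weakest result of the 9. It held 0.192, 0.374, 0.154 and 0.822 CPM in the controls and 1.36, 1.08, 0.619 and 0.718 CPM in the knockdown samples, and control replicate 4 lay above knockdown replicates 3 and 4. The change was 1.26 ± 0.48 (log2, SE; adjusted p = 0.0416, edgeR), and 1.93 without control replicate 4. The call was lost without any one of control replicates 1, 2 or 3 or knockdown replicates 1 or 2 (changes of 1.01 to 1.23, adjusted p 0.0874 to 0.113, edgeR), and with the replicate number as a block the adjusted p was 0.0504. Its relative Tbx21, which encodes T-bet and is shared by both lineages, rose by 1.90 ± 0.30 (adjusted p = 0.00032, edgeR; tested through the knockdown samples alone), from 0.384, 0.654, 0.412 and 0.548 CPM to 2.24, 2.44, 1.31 and 1.54 CPM.

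**Figure D2:**
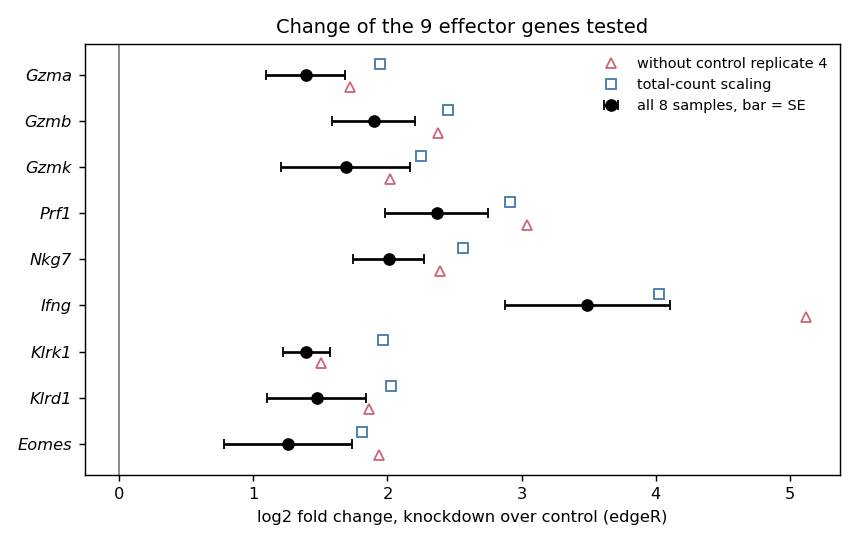
Log2 fold change of knockdown over control (x axis) for the 9 effector genes that passed the count filter: black points with SE bars for all 8 samples, open triangles without control replicate 4 and open squares under total-count scaling. Every mark lies right of 0, Ifng moves most without control replicate 4 (from 3.49 to 5.12), and all squares lie right of their black points.

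In the authors' deposited table the same 9 genes have positive log2 fold changes, between 1.10 (Eomes) and 2.74 (Ifng). Per kilobase of exon, the scale on which different genes can be compared, Nkg7 and Gzmb had the highest levels in the knockdown samples (7.79 ± 0.957 and 6.67 ± 1.21 CPM per kb, SD, n = 4), with overlapping spreads. Gzma followed at 2.46 ± 0.437, then Prf1 at 1.10 ± 0.0882 and Klrk1 at 0.951 ± 0.161 CPM per kb, which overlapped each other. Klrd1, Gzmk and Ifng (0.706, 0.67 and 0.553 CPM per kb) did not differ beyond their spreads on GENCODE exon lengths, and Eomes (0.227) and Ncr1 (0.0776) were lowest. The authors' deposited table gives shorter lengths for Klrd1 (919 against 1281 bases), Gzmk (1028 against 1389) and Ifng (1208 against 1295), so their comparison depends on the length used. In the controls Nkg7 (1.92) and Gzmb (1.78) also led, followed by Gzma (0.932), while Ifng (0.0445 CPM per kb) was the lowest of all. The place of Klrk1 depends on the length used, since its exons in GENCODE cover 7183 bases and the authors' deposited table gives 1270, with which its knockdown level was 5.38 CPM per kb, next after Nkg7 and Gzmb, and its control level 2.04 CPM per kb, beside 1.99 for Nkg7 and 1.78 for Gzmb.

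The T cell receptor complex changed with the effector genes. Of 28 genes of the receptor and its proximal signalling, 27 were tested (11 passed the filter through the knockdown samples alone), 23 rose and 2 fell, with a median log2 fold change of 1.59 beside -0.00 for all genes tested. Cd8a, the CD8 co-receptor chain of killer T cells, held 1.15, 1.87, 1.75 and 4.25 CPM in the controls and 12.7, 9.6, 8.29 and 9.65 CPM in the knockdown samples, and rose by 2.15 ± 0.32 (log2, SE; adjusted p = 0.000209, edgeR). Cd3d, Cd3e and Cd3g, the invariant chains of the receptor, rose by 1.67, 1.72 and 2.10, and the constant regions Trac and Trbc2 by 2.48 and 2.22. Cd4, a co-receptor gene of helper T cells, fell from 7.11, 7.11, 6.23 and 7.54 CPM to 1.89, 1.8, 2.03 and 2.57 CPM (log2 fold change -1.75 ± 0.16, adjusted p = 7.12e-06, edgeR). Zap70 also fell (-0.42, adjusted p = 0.0484, edgeR), but the call was fragile. It was lost without any one of control replicates 1, 2 or 3 or knockdown replicates 1, 2 or 4 (adjusted p 0.0568 to 0.125, edgeR). Upper-quartile factors, assembled loci kept, no count filter, the replicate number as a block and the samples coded C alone also lost it (adjusted p 0.0532 to 0.094, edgeR). So did a minimum fold of 1.5, and under total-count scaling the change of Zap70 was 0.15 and not called.

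Klrb1c, which encodes the NK cell antigen NK1.1, held 0.432, 0.327, 0.257 and 0.777 CPM in the controls and 0.726, 0.32, 0.55 and 0.436 CPM in the knockdown samples. The groups overlapped and the difference of 0.16 ± 0.40 (log2, SE) did not pass edgeR's test (adjusted p = 0.76), with a negative sign without control replicate 3 (-0.03) or knockdown replicate 1 (-0.0642). It belongs to a list of 28 NK receptors and adaptors outside the 10 genes, of which 13 were tested, 9 of them through the knockdown samples alone, and 12 rose, all but Klrb1c. The other 15 had too few counts for the filter, 0 to 18 over all controls and 2 to 57 over all knockdown samples, and their mean CPM was higher in the knockdown group in 12 and lower in 3. Among these 15, every knockdown sample lay above every control in Klra3 alone, a Ly49 receptor gene whose counts were 1, 0, 0 and 0 in the controls against 12, 10, 7 and 7 with the knockdown. Klre1 and Klra8, other receptor genes of the 15, had 12 and 8 counts over all controls and 21 and 13 over all knockdown samples. The 12 that rose include genes used by T cells or myeloid cells as well, such as the inhibitory receptor gene Tigit (2.69 ± 0.30, log2, SE), Fcgr3, Fcer1g and the adaptor gene Tyrobp, each with an adjusted p of at most 2.41e-05 (edgeR). Partner chains of the receptors above, chosen after their values were seen, were also higher. Both were tested through the knockdown samples alone. Klrc1 (NKG2A, the partner of CD94) rose by 1.89 ± 0.45, or 2.71 without control replicate 4, which at 1.51 CPM lay above knockdown replicate 3. Hcst (DAP10, the adaptor of NKG2D) rose by 1.68 ± 0.31 (adjusted p = 0.00426 and 0.000895 for the pair, edgeR).

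Set against the summed CPM of Cd3d, Cd3e and Cd3g in the same sample, most effector genes did not separate the groups. The sum of the 10 effector genes was 2.48 to 3.66 times the CD3 sum in the controls and 2.69 to 3.14 times in the knockdown samples, and Gzmb was 0.469 to 0.955 times against 0.714 to 1.01 times. Ifng was 0 to 0.0351 times the CD3 sum in the controls and 0.0453 to 0.0798 times in the knockdown samples, without overlap. Prf1 went from 0.0816 to 0.219 times up to 0.22 to 0.282 times, where the groups touch. In the other direction, Klrb1c was 0.109 to 0.184 times the CD3 sum in the controls and 0.0277 to 0.0532 times in the knockdown samples. Ncr1 was 0.0175 to 0.136 against 0 to 0.016 times, where the groups nearly touch. The Ncr1 ratios rest on 15 counts over all controls and 16 over all knockdown samples. Cd4 was 1.45 to 3.02 times the CD3 sum in the controls, above all 3 CD3 chains together, and 0.134 to 0.266 times in the knockdown samples. Set against Klrb1c instead, the sum of the 10 effector genes was 16.6 to 32.2 times in the controls and 50.9 to 104 times in the knockdown samples. With that denominator, itself low in counts, the groups overlapped for Gzmk, Ncr1 and Eomes and separated for the other effector genes. These ratios do not depend on the scaling between samples, and no test was run on them.

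**Figure D3:**
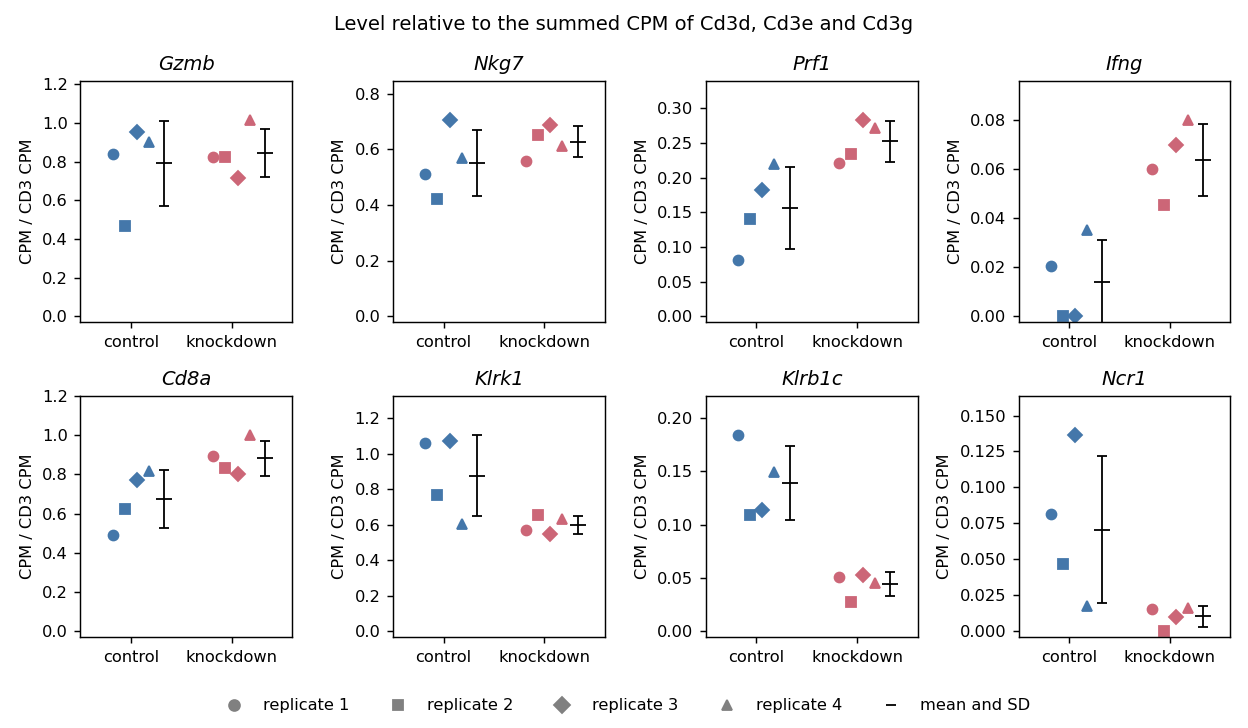
Ratio of a gene's CPM to the summed CPM of Cd3d, Cd3e and Cd3g (y axis, from 0) in each control and knockdown sample for 8 genes, with marker shapes for replicates and a bar for the mean and SD (n = 4). Gzmb, Nkg7, Cd8a and Klrk1 overlap between groups, Prf1 and Ifng are higher and Klrb1c and Ncr1 lower in every knockdown sample. The groups nearly touch in Prf1 and Ncr1, and Ncr1 rests on 15 control and 16 knockdown counts in all.

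Most of the tested genes of the granules and of their release were higher in the same samples as Gzma, Gzmb and Gzmk. Of 17 such genes outside the 10, 10 were tested (2 through the knockdown samples alone, Cst7 among them), 8 rose and 1, the lysosome trafficking gene Lyst, fell (-0.44, but 0.14 and not called under total-count scaling). Srgn, the proteoglycan core that packs granules, rose from 10.7 ± 2.67 to 33.1 ± 5.46 CPM (SD, n = 4 each), Rab27a and Unc13d, which dock and prime granules, by 1.24 ± 0.16 and 1.31 ± 0.21, and the cystatin gene Cst7 by 2.27 ± 0.34 (log2, SE; adjusted p at most 0.000327, edgeR). The clustered granzymes Gzmd, Gzme, Gzmg and Gzmn had no counts in any sample. For the other listed granzymes Gzmc, Gzmf and Gzmm, the authors' deposited table gives log2 fold changes of -0.46, 0.0060 and 0.83, none marked significant. Summed levels of all 17 genes overlapped between groups (883 to 962 CPM in the controls, 947 to 1057 CPM in the knockdown samples). The part of other cell types in these changes was not tested. Among death ligands, Fasl (2.19 ± 0.49), Tnf (1.56 ± 0.37) and Ltb (1.77 ± 0.25) rose (adjusted p = 0.00279, 0.00381 and 0.000149, edgeR), with Fasl and Tnf tested through the knockdown samples alone. Without control replicate 1 the change of Fasl was 2.97. Tnfsf10, which encodes TRAIL, held 6.89 ± 3.14 and 8.67 ± 2.62 CPM and was not called (0.33, adjusted p = 0.37, edgeR), although without control replicate 4 it was (0.67, adjusted p = 0.0413), as under total-count scaling. Lta had 0 counts in all controls and 5 in the knockdown samples.

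On the side of the target cell, 13 genes of death receptors, caspases, the BCL2 family and inhibitors of granzymes or caspases were tested. Of these 12 rose and 1, the caspase-8 inhibitor gene Cflar, fell (-0.54, but 0.035 and not called under total-count scaling). The TRAIL receptor gene Tnfrsf10b, the 1 gene of these tested through the knockdown samples alone, rose from 0.624, 0.935, 0.412 and 1.74 CPM to 12.6, 14.1, 10.7 and 10.7 CPM (3.67 ± 0.31, log2, SE; adjusted p = 4.08e-06, edgeR), and the intracellular serpin gene Serpinb6a by 1.40 ± 0.10, although 29.3% of its exon bases are shared with genes on the opposite strand. Of 13 ligands of NK receptors, 11 were tested, 6 rose and 2 fell (1 under total-count scaling). Raet1e, a ligand of NKG2D, rose from 17.7 ± 4.85 to 49.8 ± 2.35 CPM, with 23% of its exon bases shared with Raet1d and H60b, while Clec2d, a ligand of the NKR-P1 receptors, fell by 1.41 ± 0.19 on the log2 scale (adjusted p = 8.7e-05, edgeR).

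Receptors and targets of interferon gamma were higher in the same samples as Ifng. Of 32 such genes 30 were tested, none of them through one group alone, and 28 rose and 0 fell, with a median log2 fold change of 1.34. Ifngr1, the ligand-binding chain, rose from 21.2 ± 1.36 to 52.4 ± 2.81 CPM, the class II invariant chain gene Cd74 from 75.2 ± 19.5 to 543 ± 92.3 CPM and the class II gene H2-Aa by 2.66 ± 0.19 (log2, SE; adjusted p at most 1.42e-06, edgeR). Ido1 had no counts in any sample. Class II genes are also expressed by macrophages and B cells, and of the macrophage markers 10 of 11 tested rose, with summed levels of 645 to 856 CPM in the controls and 1667 to 1935 CPM in the knockdown samples. The part of those cells in this result was not tested.

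Of 21 cytokines and receptors that induce or restrain effector genes, 14 were tested (1 through the knockdown samples alone), 10 rose and 2 fell. Il2rb and Il2rg, the signalling chains for interleukins 2 and 15, rose by 1.75 ± 0.18 and 1.45 ± 0.15, and Il18bp, a soluble inhibitor of interleukin 18, by 1.82 ± 0.09, whereas Il2ra fell by 2.77 ± 0.26 on the log2 scale (adjusted p at most 1.82e-05, edgeR). The authors' deposited table also lists Il15ra, a receptor chain for interleukin 15, as lower (log2 fold change -1.21) and Il15 as higher (1.18). Of 26 chemokine, chemokine receptor and homing genes, 24 were tested (5 through the knockdown samples alone, Cx3cl1 among them), 19 rose and 2 fell (none under total-count scaling). The integrin gene Itgb2 and the chemokine gene Cx3cl1 rose by 1.91 and 2.22. Of 22 lymphocyte transcription factors, 20 were tested (4 through the knockdown samples alone), 14 rose and 3 fell (1 under total-count scaling), among them Prdm1 (1.92 ± 0.23), a driver of effector differentiation, and Hopx (-1.42 ± 0.10). Among 13 activation and checkpoint receptors, 12 were tested (5 through the knockdown samples alone, Pdcd1 among them) and 10 rose, including Pdcd1, which encodes PD-1, from 0.24, 0.327, 0.412 and 1.32 CPM to 4.67, 3.81, 3.82 and 3.44 CPM, and Havcr2 by 2.49 ± 0.25. The change of Pdcd1 was 2.75, or 3.57 without control replicate 4. Lgals9, the 1 that fell (-0.32), rose under total-count scaling (0.25).

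**Figure D4:**
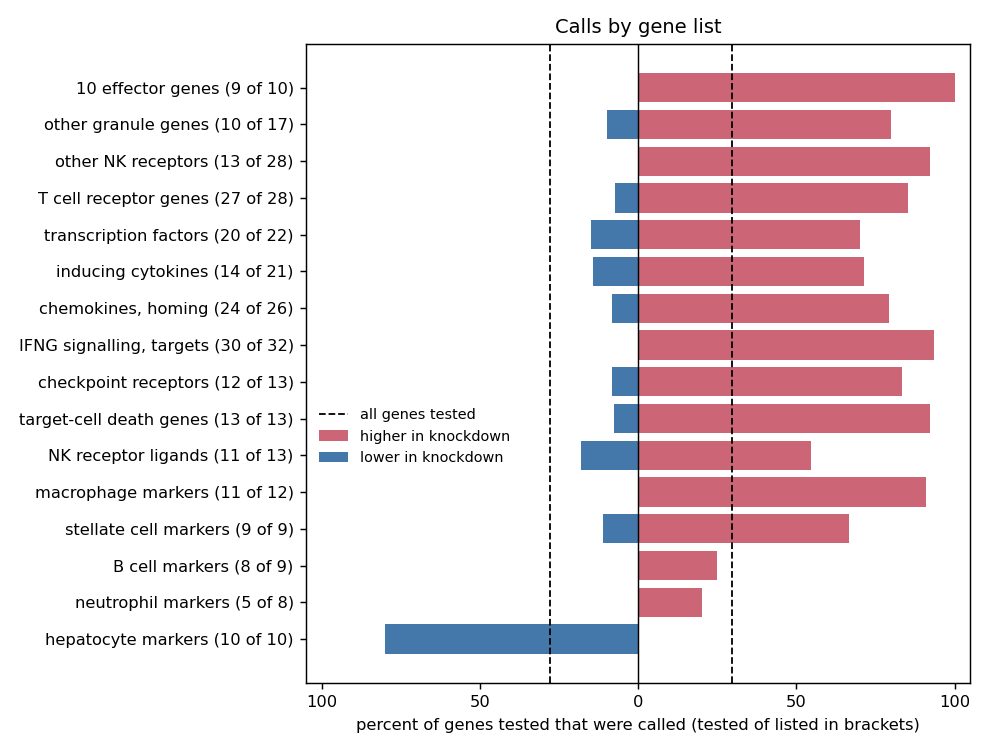
Percent of the tested genes of each list that rose (right) or fell (left) in the knockdown samples, with dashed lines for all genes tested (29.5% and 27.8%) and the number tested of the number listed in brackets. Every list drawn but 3 reaches beyond the right line, macrophage (90.9%) and stellate cell (66.7%) markers included, and the exceptions are neutrophil, B cell and hepatocyte markers. Not every list is drawn, and endothelial markers, left out, had 14.3% rising and 28.6% falling.

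Markers of other cell types in the same livers moved in several ways. Of the stellate cell and fibroblast markers 6 of 9 rose and 1 fell (summed 256 to 334 against 588 to 985 CPM), and of the hepatocyte markers 8 of 10 fell and 0 rose, or 5 fell and 2 rose under total-count scaling. Of 8 neutrophil markers 5 were tested (2 through the knockdown samples alone) and 1 rose (Csf3r, or 2 genes under total-count scaling). Their summed levels were 4.22 to 9.87 CPM in the controls and 10.1 to 17.8 CPM in the knockdown samples, without overlap. B cell markers rose in 2 of 8 tested, Cd22 and Ighm, or in 1 without any one of control replicates 1, 2 or 3 or knockdown replicates 1 or 4. Mast cell and basophil markers, listed because mast cells can carry granzyme B, summed to 0.0457 to 0.154 CPM in the controls and 0.0316 to 0.231 CPM in the knockdown samples. The part of cell composition in the changes of the effector genes was not tested.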

How the data were processed

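Liver RNA was analysed from the 8 samples of the series. Trizol extraction, a DNase I step and ribosomal RNA depletion preceded sequencing, per the labels' protocols. The submitters' processing notes name fastp 0.19.5, Bowtie2 2.2.9, GATK 3.8, SAMtools 1.9 and mm10. For the counting program, the annotation and the use of strand, the source is silent (not given in the sources used here). Values in the table deposited by the authors are expected counts without normalisation, and 10.9% of them were not whole. These were rounded, and 645 assembled loci (0.676 to 1.08% of a sample's counts) were left out. The authors also deposited a comparison with a fold change as a ratio, its log2 value, a p-value and an adjusted p-value per gene, per the file headers. Its settings are not given there.

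Counts were fitted in R 4.3.3 with edgeR 4.0.16 (filterByExpr, TMM factors, glmQLFit, glmQLFTest). The filter required about 10 counts in 4 samples, or 0.388 CPM. CPM values are on the total count of the tested genes times the TMM factor, which was 0.776 to 0.890 in the controls and 1.15 to 1.26 in the knockdown samples. Positions and exon lengths are from GENCODE mouse release M21, and start sites from RefSeq on GRCm38.p6. The labels list separate samples without saying that each is 1 mouse, so the spread behind every p-value may be technical. Replicates differed by more than counting error (chi-square per degree of freedom at least 9.92). Simulated counts with 200 changed genes were used to test the fit. Alternatives used DESeq2 1.42.0, limma-voom (limma 3.58.1), other scalings and filters, covariates, a minimum fold and left-out samples. The gene length of the authors' table was tried after the data were seen.

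The 10 genes, the 22 other lists and the rule for naming genes were chosen with earlier results of these data known. The rule named the 10 genes, Eif4ebp3, the CD3, CD8, CD4, NK1.1 and T-bet genes, the death ligands, up to 4 called genes per list with the smallest p and up to 2 of the other direction, and the 5 genes most like the summed level. Not every gene so named is described. Zap70, Csf3r, Klrc1, Hcst, Klre1, Klra3, Klra8, Gzmc, Gzmf, Gzmm, Il15, Il15ra and genes named as having no counts were added after their values were seen. Of the 10 genes, 2 share exon bases with another gene (Ifng and Eomes), and close members of the Klr and granzyme families may share reads.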

Additional observations from a re-analysis of the deposited data

How the results depend on the processing

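Over 20 or 21 alternatives per gene, Gzma, Gzmb, Gzmk, Prf1, Ifng, Nkg7, Klrk1 and Klrd1 kept their direction and stayed under the threshold (highest adjusted p 0.0484, for Gzmk, edgeR), and Eomes kept its direction but lost its call in 7 of 20. Total-count scaling moved the median over all genes by 0.56 (log2) against the TMM scale, with 9831 genes higher and 1187 lower (89.2% of calls higher, against 51.5%), and the effector genes rose by 1.81 to 4.02. A minimum fold of 1.5 left 2399 genes higher and 1322 lower and 8 of the effector genes, without Eomes. A mean of at least 1 CPM admitted 5 of the effector genes, all of them higher. With the replicate number as a block, 4415 genes were higher and 4067 lower and 8 effector genes were called, with an adjusted p of 0.0504 for Eomes. Replicate 4 of both groups is coded D and the rest C, with no batch stated; with the letter as a covariate or the samples coded C alone, 9 effector genes were called. The same-numbered samples did not deviate together (correlations of -0.18, -0.03, 0.06 and 0.17). Signs turned under total-count scaling for Cflar (0.035), Clec4g (0.083), Lgals9 (0.25), Lyst (0.14), S1pr1 (0.12) and Zap70 (0.15). The sign of Klrb1c turned without control replicate 3 (-0.03) or knockdown replicate 1 (-0.0642). Low counts limit Ncr1, Ifng, Gzmk, Klrd1 and Eomes, and intervals cover counting error only.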

Other observations

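Proliferation genes were higher in the same knockdown samples: all 8 listed rose, with summed levels of 20.7 to 47.9 CPM in the controls and 110 to 172 CPM in the knockdown samples. Plk1, a mitotic kinase gene, held 0.816, 1.17, 0.875 and 2.7 CPM in control replicates 1 to 4 and 12.1, 10.1, 8.43 and 9.83 CPM in knockdown replicates 1 to 4 (2.85 ± 0.32, log2, SE; adjusted p = 2.68e-05, edgeR). Cdk1 and Top2a rose by 2.29 and 2.45. Control replicate 4 was the highest control for these 3 genes, as it was for 9 of the 10 effector genes.

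The 5 genes closest to the summed effector level over the 8 samples, by the root mean square difference of centred log2 CPM, were Foxm1 (0.0646), Cd274 (0.0664), Tedc1 (0.075), Coro1a (0.0756) and St6galnac4 (0.0801). Cd274, which encodes the PD-1 ligand PD-L1, held 5.76, 5.75, 6.18 and 13.2 CPM in the controls and 27.9, 26.3, 22.7 and 25.1 CPM in the knockdown samples. Coro1a, an actin regulator of leukocytes, held 9.03, 8.41, 9.06 and 20 CPM against 47.4, 41.3, 33.2 and 37.7 CPM, and Foxm1, a transcription factor of the cell cycle, 1.49, 1.31, 1.7 and 3.29 CPM against 9.02, 7.68, 6.43 and 6.41 CPM. Genes chosen this way follow the summed level by construction, its high control replicate 4 included.

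Dendritic cell markers summed to 21.1 to 27.0 CPM in the controls and 32.1 to 60.6 CPM in the knockdown samples, cholangiocyte markers to 46.7 to 59.7 against 80.2 to 116 CPM, endothelial markers to 253 to 290 against 160 to 308 CPM and erythroid markers to 285 to 466 against 294 to 393 CPM. All 7 endothelial markers were tested, of which 1 rose, 2 fell and 4 were not called.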
